A study of Rattus norvegicus with 26 samples.

Results

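The 34 genes described here encode titin, the Z-disc and M-band proteins that anchor the contractile filaments of striated muscle, and the scaffold proteins around them. They were taken by gene symbol from a table of 34034 genes measured in rat soleus, a calf muscle made up largely of slow fibres. All 34 symbols were in the table and all 34 were among the 10064 genes with enough counts to be tested. The study compared lines of rats bred over 44 generations for high or low running capacity (HCR and LCR), with and without a running wheel. The 4 groups were 5 running HCR, 5 running LCR, 8 sedentary HCR and 8 sedentary LCR rats, all of them aged females of generation 44, whose ages were not used here. Runners lived as pairs in a cage with a wheel for more than 5 months, and sedentary rats had no wheel. The runners are labelled as a cohort of their own, so cohort and running cannot be told apart, and cage mates were each counted as an animal. Each library was counted as 1 animal, and no batch or date is named in the labels.

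The sarcomere is the unit of contraction. Thin actin filaments are cross-linked by alpha-actinin at the Z-disc, thick myosin filaments are tied together by myomesins at the M-band, and titin runs between Z-disc and M-band as a molecular spring. Around the Z-disc sits a set of adaptor and signalling proteins that bind calcineurin, filamin or titin, several of which are known to respond to stretch, eccentric load or repair of myofibrils. Some genes known from fast fibres have a relative of slow fibres or of all fibres, such as Actn3 beside Actn2.

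Reverse transcription was primed with oligo(dT), per the labels' protocols, which is meant to give reads near 3' ends. Where reads fell within long transcripts such as Ttn was not examined. Counts are given as CPM, scaled to the size of the library and not divided by transcript length. A share of counts is therefore not a share of transcripts. The 34 genes took 10.8% to 15.0% of all counts of a library (median 12.9%), of which Ttn alone took 7.17% to 10.7% (median 9.05%). Totals ran from 1.10 to 2.52 megacounts per library. Summed CPM of 10 slow-fibre markers was between 27468 and 53883 in all 26 libraries, above the sum of the 13 detected fast-fibre markers, which was between 4914 and 16497. In whole muscle, fewer cells of a type and less RNA per cell cannot be told apart. The spans of 14 of the 34 genes overlap another gene in the RefSeq annotation of the newer assembly GRCr8 (Ttn, Obsl1, Myom2, Mybpc1, Mybph, Actn2, Flnc, Xirp1, Xirp2, Synpo2, Nrap, Capn3, Des and Ablim1), and strand use in counting is not stated in any source used.

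Libraries HCR running 5 and LCR running 5 carry the name of the other line in their titles, and were kept under the line that their genotype and description give. The sample code closing each of these titles is that of the line used here, so both titles contradict themselves. Below, the titles' lines are the line names spelled out in the titles, not those of the codes. Of 274 genes that differed between the sedentary lines, 61.3% in HCR running 5 and 75.2% in LCR running 5 lay nearer the sedentary mean of the line used here, within the 57.7% to 77.7% of all 10 running libraries. LCR running 5 also stood apart in the genes described here. It was above the mean log2 CPM of its group for 29 of 34 genes, with a median deviation of 0.33. For results given below that were among the 3 of smallest p in a contrast, values that moved by over 1.5 times without these libraries, or with the titles' lines, are given beside them.

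Of the 34 genes, 26 had a promoter entry in RefSeq, covering 250 bases before and 50 bases after the annotated start. A match to the MEF2 site, the A/T-rich element bound by muscle MEF2 transcription factors, was found on either strand in 9 of the 26, or 34.6%, against 3.37% of 27457 rat promoters of that length. E-boxes (CANNTG, the element of myogenic bHLH factors, read on both strands) stood in 84.6% of the 26 and 71.6% of all promoters, MCAT elements (CATTCC, either strand) in 23.1% and 13.9%, and CArG boxes in 3.85% and 1.64%. MEF2 sites of 8 of these genes are shown because their share lay farthest from that of all promoters. They are read 5' to 3' on the coding strand of GRCr8 with the matching bases in capitals and up to 10 bases on each side.
Ttn (chr3:82332257-82332286, minus strand): ttctaaaaggCTAAATTTAGcactgccaat
Myom3 (chr5:153276263-153276292, plus strand): cccagcgctgCTATATTTAAgacggttaca
Myoz1 (chr15:3693520-3693549, plus strand): ctcatcgactCTATTAATAAccacccccct
Xirp1 (chr8:128635074-128635103, minus strand): tccacaagccCTAAAAATAAccagaccact
Xirp2 (chr3:72534102-72534131, plus strand): agctcagctcCTAAAAATAGatgctaggtt
Synpo2l (chr15:3684760-3684787, plus strand): gctcaggtTTATTTTTAGgcaggcagac
Smpx (chrX:41107219-41107248, minus strand): gtatcaaactCTATATTTAGgaagaacaac
Capn3 (chr3:127861525-127861554, plus strand): cacttcacatCTATTTTTAGttttcctggc
The sites began between 33 bases before the annotated start, in Myom3, and 242 bases before it, in Synpo2l. A match is a description of these letters and was not tested for factor binding.

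Between the lines, averaged over running and sedentary rats, 1 of 34 genes passed an adjusted p of 0.05, against 3.75% of all genes tested. That gene was Ablim3, an actin-binding LIM protein, and it was 1.43-fold higher in HCR. In sedentary rats alone 0 of 34 differed between HCR and LCR at that threshold, where 2.72% of all genes did. In running rats alone 0 of 34 did, where 0.626% of all genes did. Running against sedentary rats gave 0 of 34 called genes in LCR (0% of all genes tested), 0 of 34 in HCR (0.0994% of all genes), and 0 of 34 averaged over the lines (0.378% of all genes). For 0 of 34 genes did the response to running differ between HCR and LCR at that threshold, and 0% of all genes did. These counts are by edgeR's quasi-likelihood test. For running averaged over the lines DESeq2 called 1 of the 34 and limma's voom with quality weights called 2, and for the other contrasts with a count of 0 both called 0. Of all genes, 6 to 75 were called for running averaged over the lines across the alternative settings, these 2 methods among them.

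At an unadjusted p under 0.05 the share of the 34 genes lay above that of all genes in some contrasts and below it in others. For the lines averaged over activity they were 8 of 34, or 23.5%, against 15.7% of all genes tested. In sedentary rats they were 4 of 34, or 11.8%, against 15.9% of all genes, and in running rats 3 of 34, or 8.82%, against 8.58%. For running against sedentary rats they were 6 of 34 averaged over the lines, or 17.6%, against 12.7% of all genes. In HCR alone they were 7 of 34, or 20.6%, against 12.5%, and in LCR alone 2 of 34, or 5.88%, against 6.08%. For the difference between the lines' responses the count was 1 of 34, or 2.94%, against 5.88%. No p was computed for these shares.

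Most of the 34 genes lay slightly below 0 between the lines. In HCR against LCR, averaged over activity, 29 of 34 had a log2 fold change below 0, with a median of -0.074, where 49.3% of all genes lay below 0 and their median was 0.0028. In sedentary rats 28 of 34 lay below 0 with a median of -0.085, and in running rats 23 of 34 with a median of -0.067. With the titles' lines for the conflicting libraries, the median in running rats was 0.062. Averaged over activity, the median stayed below 0 in all 38 other settings, which share most of their rats. It was -0.028 with the titles' lines. Between libraries of a group, the median deviation of the 34 genes had an SD of 0.14. For running against sedentary rats 19 of 34 lay above 0, with a median of 0.032, and without the conflicting libraries that median was -0.044. The 95% interval lay within 1.5-fold either way for 26 of 34 genes between the lines and for 27 of 34 between running and sedentary rats, both averaged, where it did for 79.2% and 81.0% of all genes.

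**Figure D1:**
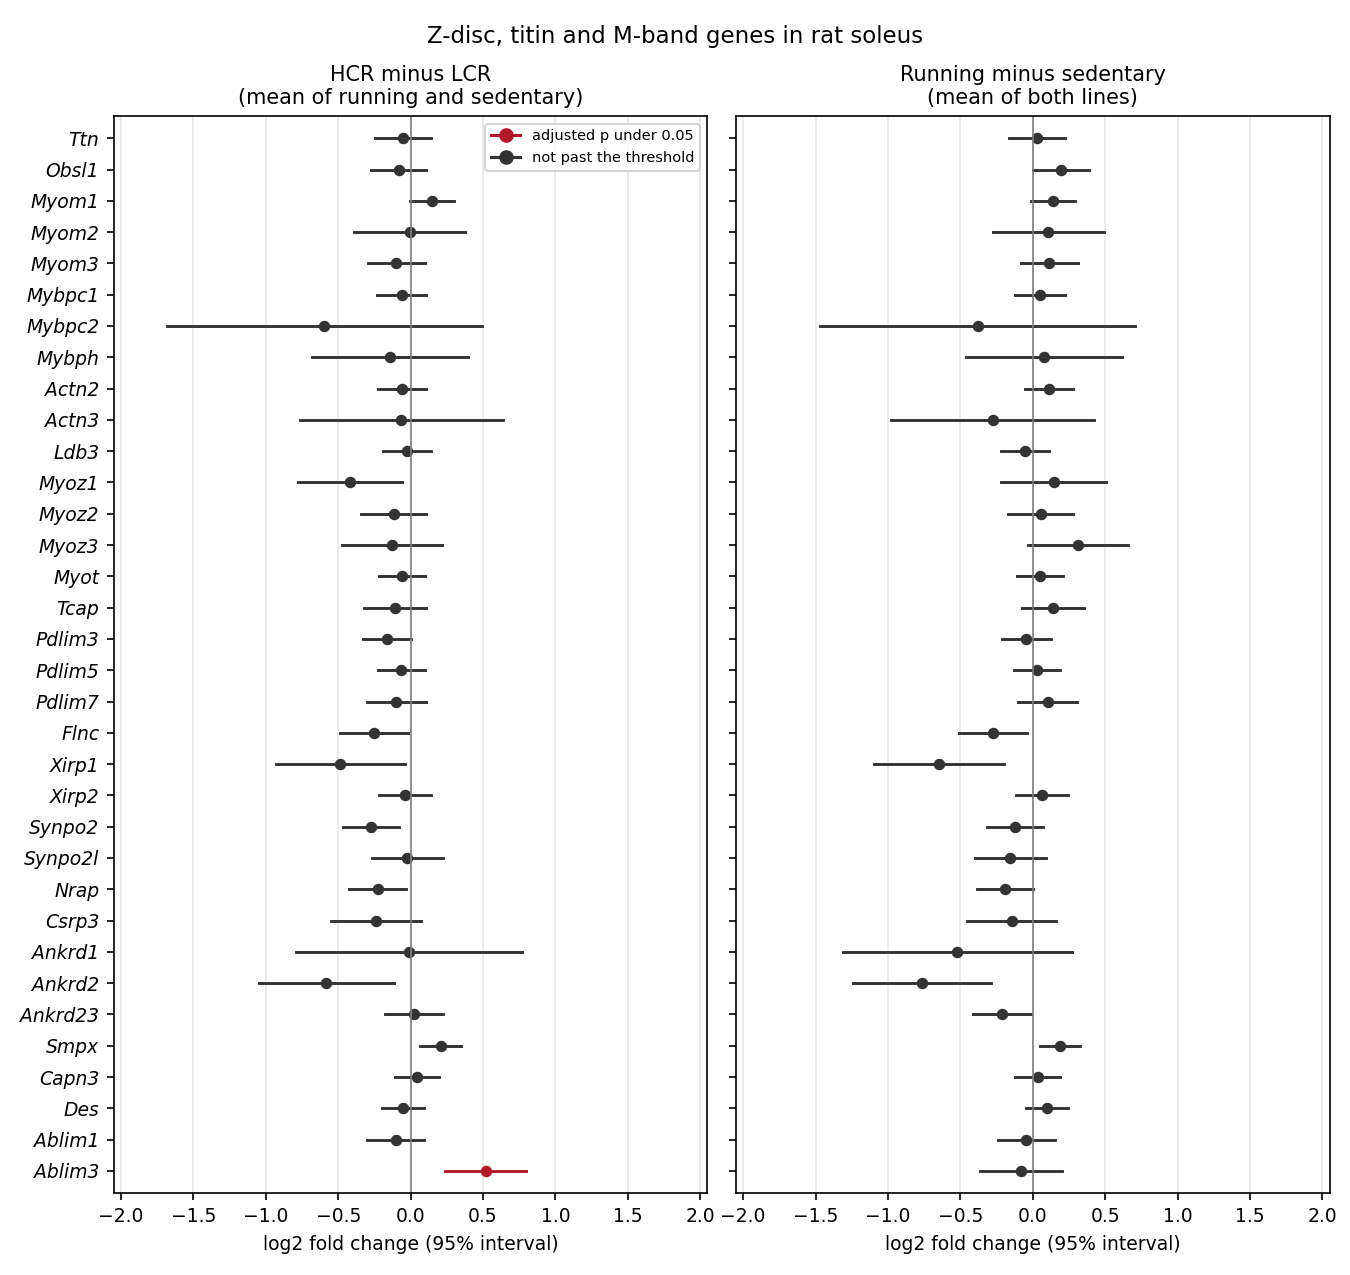
Log2 fold changes with 95% intervals of the 34 genes, for HCR minus LCR averaged over running and sedentary rats (left) and for running minus sedentary rats averaged over the lines (right), with 26 libraries in 1 fit. Ablim3, in red on the left at 0.52, is the gene past the adjusted threshold, and Ankrd2 and Xirp1 lie farthest below 0 among the narrower intervals on the right, at -0.77 and -0.65.

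No titin or M-band gene passed the adjusted threshold in any contrast. Ttn, which encodes the spring that spans the sarcomere from Z-disc to M-band, had 69625, 83158, 86613, 98435 and 119689 CPM in running HCR rats, and 77879, 86049.7, 92721, 91099.6 and 116231 CPM in running LCR rats. Its sedentary values ran from 62930.4 to 120559 CPM in sedentary HCR rats (median 83925) and from 73863 to 100269 CPM in sedentary LCR rats (median 95262). All 4 ranges overlapped. Between the lines its log2 fold change was -0.052 (95% interval -0.25 to 0.14, adjusted p = 0.866), and for running it was 0.029 (95% interval -0.17 to 0.22, adjusted p = 0.938).

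Myom1 encodes the main myomesin, the cross-linker of thick filaments. It measured 2106, 2643, 2773, 2437 and 3103 CPM in running HCR rats, and 2186, 2405, 2337, 1976 and 2635 CPM in running LCR rats. Sedentary rats ranged from 1686 to 3005 CPM in sedentary HCR rats (median 2297) and from 1783 to 2325 CPM in sedentary LCR rats (median 2181.8). The highest value in each line's runners exceeded all sedentary values of that line, but the groups overlapped, and the differences did not pass between the lines (log2 fold change 0.15, adjusted p = 0.339) or for running (0.14, adjusted p = 0.457).

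Myom2, the myomesin known from fast fibres and heart, was measured at 654, 782, 740.5, 366 and 596 CPM in running HCR rats, and 471, 545, 356, 433 and 1165 CPM in running LCR rats. It ranged from 308 to 761 CPM in sedentary HCR rats (median 604) and from 401 to 719.8 CPM in sedentary LCR rats (median 562). LCR running 5 stood above every other library. The log2 fold changes were -0.0057 between the lines and 0.11 for running, with 95% intervals of -0.39 to 0.38 and -0.27 to 0.49.

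Obsl1 encodes obscurin-like 1, which links titin to myomesin at the M-band. Its values were 47.2, 61.3, 80.1, 107 and 104 CPM in running HCR rats, and 71.1, 73.5, 82.9, 79.0 and 79.1 CPM in running LCR rats. They were from 52.1 to 73.9 CPM in sedentary HCR rats (median 63.0) and from 60.9 to 83.6 CPM in sedentary LCR rats (median 71.7). Within the running HCR group 3 of 5 libraries lay above the sedentary HCR mean and the other two below it. The log2 fold change for running was 0.30 in HCR (unadjusted p = 0.0308, adjusted p = 0.334) and 0.090 in LCR. Without both conflicting libraries the HCR value was 0.19 (adjusted p = 0.681). Myom3, the third myomesin, ranged from 118 to 224 CPM over all libraries, and for running all 4 M-band genes had positive log2 fold changes averaged over the lines, between 0.11 and 0.20, none past the threshold.

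In the myosin-binding protein C family the slow form Mybpc1 varied less between rats of a group than the fast form Mybpc2. Their within-group SDs of log2 CPM were 0.22 and 1.27, at 7142 and 45.3 counts a library on average. Of tested genes within 1 log2 unit of its level, 57.1% had a smaller SD than Mybpc1. Mybpc1, the slow-muscle form that decorates the thick filament, had 3649, 4088, 4404, 4174 and 4972 CPM in running HCR rats, and 4017, 4204, 3922, 4312 and 5395 CPM in running LCR rats. Sedentary values lay from 2970.1 to 5519.8 CPM in sedentary HCR rats (median 3998) and from 2927 to 4796 CPM in sedentary LCR rats (median 4497). The groups overlapped throughout, with log2 fold changes of -0.062 between the lines (adjusted p = 0.798) and 0.050 for running (adjusted p = 0.862).

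Mybpc2, the fast-muscle form, was found at 15.1, 54.8, 7.80, 1.66 and 6.13 CPM in running HCR rats, and 11.4, 22.9, 70.7, 4.42 and 4.40 CPM in running LCR rats. Its range was from 4.83 to 39.9 CPM in sedentary HCR rats (median 18.1) and from 10.3 to 128 CPM in sedentary LCR rats (median 23.7). Single rats of 3 groups stood far above the rest of their group, and the lowest library held 2 counts. The highest and lowest of the 26 libraries differed 77.1-fold. The intervals of its log2 fold changes were therefore wide, at -1.68 to 0.49 between the lines and -1.47 to 0.71 for running. Mybph, a related protein, ranged from 35.3 to 242 CPM over all libraries with overlapping groups.

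Among the alpha-actinins, which cross-link thin filaments at the Z-disc, Actn2 varied less between rats of a group than Actn3. Actn2, present in all fibres, had 1238, 1329.6, 1342, 1615 and 1463 CPM in running HCR rats, and 1282, 1335, 1249, 1462 and 1827 CPM in running LCR rats. In sedentary rats it ranged from 927 to 1734 CPM in sedentary HCR rats (median 1252) and from 1102 to 1578 CPM in sedentary LCR rats (median 1363). These ranges overlapped, and the log2 fold changes were -0.057 between the lines (adjusted p = 0.813) and 0.11 for running (adjusted p = 0.612).

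Actn3, restricted to fast fibres, had 28.0, 13.6, 9.22, 20.7 and 12.3 CPM in running HCR rats, and 17.4, 13.1, 44.0, 6.95 and 7.91 CPM in running LCR rats. Without a wheel it ranged from 7.66 to 49.8 CPM in sedentary HCR rats (median 12.5) and from 11.9 to 35.4 CPM in sedentary LCR rats (median 19.2). The lowest and highest rats lay far apart in every group and all 4 ranges overlapped. Its log2 fold changes were -0.066 between the lines (95% interval -0.77 to 0.64) and -0.28 for running (95% interval -0.98 to 0.42).

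Among rats of the same group, these fast-fibre members were set against an index of fast-fibre content, the mean log2 CPM of 13 fast-fibre markers, none of them among the 34 genes. The index ranged from -0.93 to 0.81 around the mean of all libraries. The slope of Actn3 was 1.55 log2 CPM per unit of the index, SE 0.38, unadjusted p = 0.000454, adjusted p = 0.327. That of Mybpc2 was 1.89 log2 CPM per unit of the index, SE 0.75, unadjusted p = 0.0205, adjusted p = 0.811. Ankrd1 had 1.32 log2 CPM per unit of the index, SE 0.45, unadjusted p = 0.00835, adjusted p = 0.770, and Myom2 had the opposite sign, at -0.67 log2 CPM per unit of the index, SE 0.27, unadjusted p = 0.0210, adjusted p = 0.811. Ablim3 had 0.43 log2 CPM per unit of the index, SE 0.19, unadjusted p = 0.0316, adjusted p = 0.823. At the adjusted threshold 0 of 34 genes passed, against 0.0298% of all genes, which were 3 genes of the index itself, Myh1, Tnnc2 and Tnnt3. At an unadjusted p under 0.05 there were 5 of 34, or 14.7%, against 5.91% of all genes. With Myh2 alone as the index 1 of the 34, Myoz1, passed. Of all genes, 0 to 9 passed across the alternative settings of the index fit, Myh2 alone among them.

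**Figure D2:**
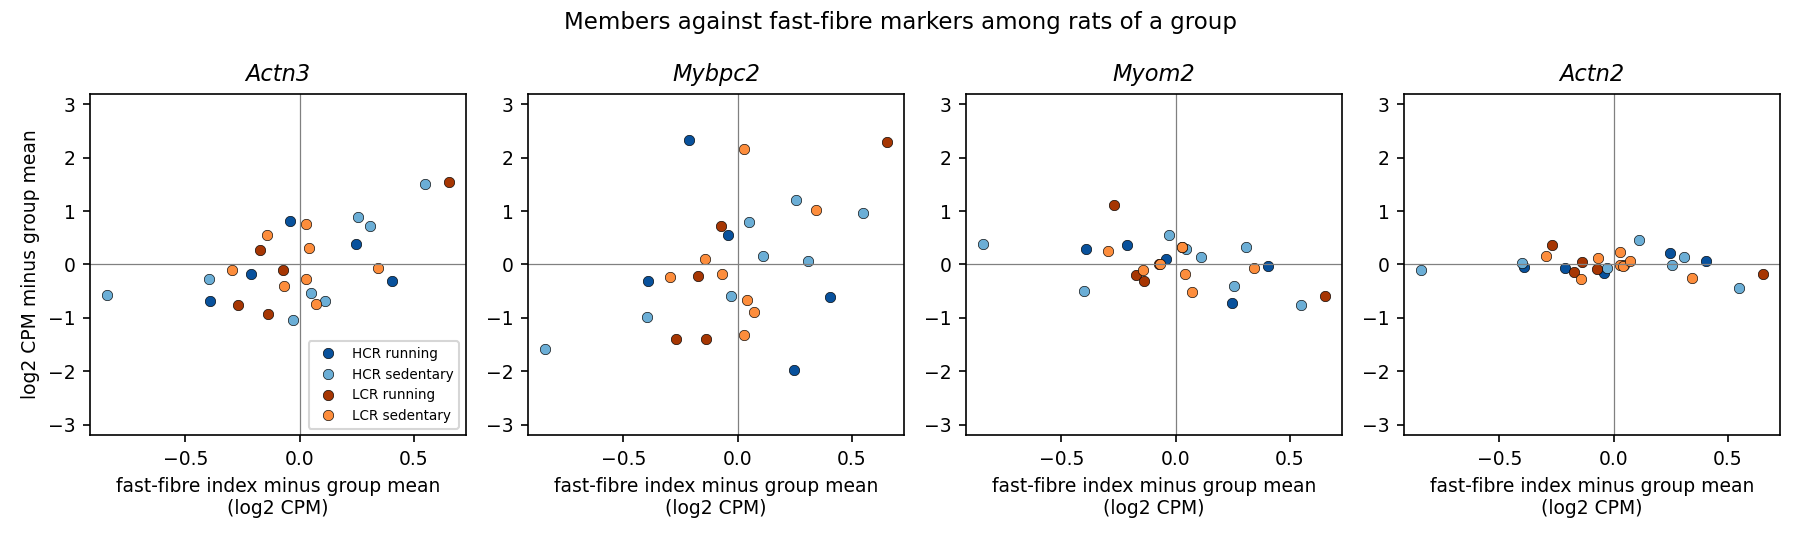
Log2 CPM of Actn3, Mybpc2, Myom2 and Actn2 against the fast-fibre index, each as the deviation from the mean of the rat's group, with 1 point for each of 26 libraries. Actn3 and Mybpc2 lie higher where the index is higher, with slopes of 1.55 and 1.89, while Actn2 stays near 0 across the range, with a slope of -0.081.

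The 9 Z-disc adaptors had log2 fold changes below 0 in HCR against LCR in all 9 cases, averaged over activity, with a median of -0.11, and none passed the threshold. Myoz1, the calsarcin of fast fibres that binds calcineurin, had 40.0, 26.6, 57.5, 32.3 and 43.9 CPM in running HCR rats, and 49.4, 45.2, 53.3, 60.6 and 68.6 CPM in running LCR rats. Its sedentary range was from 19.4 to 57.6 CPM in sedentary HCR rats (median 36.9) and from 28.9 to 68.0 CPM in sedentary LCR rats (median 48.6). Of the running HCR libraries 4 of 5 lay below the running LCR mean, and the ranges overlapped. The log2 fold change between the lines was -0.42 (SE 0.18, unadjusted p = 0.0253, adjusted p = 0.222). Summed fast-fibre markers were 4914 to 8655 CPM in running HCR and 9150 to 16497 CPM in running LCR rats. With the fast-fibre index described above as a covariate the Myoz1 difference was -0.18 (adjusted p = 0.818). Means of the index were -0.51 in running HCR, 0.16 in running LCR, -0.093 in sedentary HCR and 0.31 in sedentary LCR rats. Index and line therefore cannot be fully told apart in that fit, and the part of fibre content in the Myoz1 values was not tested.

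Myoz2, the calsarcin of slow fibres and heart, was measured at 725, 682, 646, 764 and 663 CPM in running HCR rats, and 723, 824, 548, 684 and 1120.4 CPM in running LCR rats. It ranged from 448 to 945 CPM in sedentary HCR rats (median 665) and from 573 to 951 CPM in sedentary LCR rats (median 698). The groups overlapped, with log2 fold changes of -0.12 between the lines (adjusted p = 0.678) and 0.055 for running (adjusted p = 0.883).

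Pdlim7 encodes enigma, a PDZ and LIM protein that binds alpha-actinin. It had 110.0, 152, 248, 198 and 247 CPM in running HCR rats, and 150.3, 181, 156, 200.3 and 199.6 CPM in running LCR rats. In sedentary rats values lay from 119.9 to 205 CPM in sedentary HCR rats (median 155) and from 163 to 209 CPM in sedentary LCR rats (median 193). Sedentary HCR rats were mostly low, with 7 of 8 below the sedentary LCR mean, while runners of both lines overlapped. Its log2 fold change between the sedentary lines was -0.30 (adjusted p = 0.212), and the difference between the lines' responses to running was 0.39 (SE 0.20, adjusted p = 0.852), or 0.25 with the titles' lines. The other 6 adaptors did not pass any contrast: Ldb3 (ZASP), the calsarcin Myoz3, myotilin (Myot), telethonin (Tcap), which caps the end of titin in the Z-disc, Pdlim3 and Pdlim5. Of these, Myoz3 had the smallest unadjusted p, for running in HCR (log2 fold change 0.54, SE 0.24, adjusted p = 0.344). Without both conflicting libraries it was 0.29, and with the titles' lines 0.32. Its means were 22.9 ± 11.6 CPM in running HCR and 15.6 ± 4.53 CPM in sedentary HCR rats (SD, n = 5 and 8).

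The filamin, Xin and synaptopodin scaffolds, which gather at Z-discs and at sites of myofibril damage, had log2 fold changes below 0 in HCR against LCR in 6 of 6 cases, averaged over activity, with a median of -0.24. None passed the adjusted threshold. With the titles' lines the difference was -0.017 for Flnc (-0.25 in the reported fit), -0.17 for Xirp1 (-0.49) and -0.22 for Synpo2 (-0.27). Without LCR running 5 these were -0.14, -0.32 and -0.24. Xirp1 encodes Xin, an actin-binding repeat protein of junctions and repair sites. Its values were 59.2, 88.4, 78.7, 205 and 151 CPM in running HCR rats, and 77.6, 127, 135, 169.9 and 306 CPM in running LCR rats. Sedentary values ran from 125 to 251 CPM in sedentary HCR rats (median 181) and from 161 to 409.9 CPM in sedentary LCR rats (median 222). Running HCR rats had 4 of 5 values below the sedentary HCR mean, running LCR rats had 4 of 5 below the sedentary LCR mean, and the ranges overlapped in both lines. The log2 fold change for running was -0.65 averaged over the lines (1.57-fold lower, SE 0.22, unadjusted p = 0.00683, adjusted p = 0.194), with -0.66 in HCR and -0.64 in LCR. With the titles' lines the HCR value was -0.32, and without both conflicting libraries the LCR value was -0.98. Without LCR running 5 the average was -0.81. Limma's voom with quality weights called the average (-0.73, adjusted p = 0.0480). Its relative Xirp2 had a log2 fold change of 0.064 for running.

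Flnc encodes filamin C, the muscle filamin that links the Z-disc to the membrane. It had 305, 244, 249, 373 and 356 CPM in running HCR rats, and 315, 331, 339.5, 404 and 651 CPM in running LCR rats. Its sedentary range was from 355 to 535 CPM in sedentary HCR rats (median 383) and from 327 to 541 CPM in sedentary LCR rats (median 442). In HCR 5 of 5 runners lay below the sedentary mean, with overlap between the highest runners and the lowest sedentary rats. In LCR the library LCR running 5 was above all sedentary rats and the other runners were at or below 404 CPM. The log2 fold change for running was -0.44 in HCR (SE 0.16, unadjusted p = 0.0125, adjusted p = 0.252) and -0.27 averaged over the lines (adjusted p = 0.305). With the titles' lines the HCR value was -0.19 (adjusted p = 0.778) and the average -0.26 (adjusted p = 0.420). Without LCR running 5 the average was -0.38 and passed the threshold (adjusted p = 0.0495). Without both conflicting libraries it was -0.42 (adjusted p = 0.0488).

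Synpo2, or myopodin, bundles actin at the Z-disc and takes part in chaperone-assisted turnover of filamin. Its values were 329, 443, 565, 569 and 622 CPM in running HCR rats, and 476, 602, 599.7, 615 and 717 CPM in running LCR rats. They ranged from 409 to 793 CPM in sedentary HCR rats (median 524) and from 522 to 748 CPM in sedentary LCR rats (median 677). Of sedentary HCR rats 7 of 8 were below the sedentary LCR mean, the exception being HCR sedentary 4 at 793 CPM. The line difference was -0.27 averaged over activity (SE 0.094, unadjusted p = 0.00694, adjusted p = 0.109). Without HCR sedentary 4 it was -0.32 and passed (adjusted p = 0.0222), and in sedentary rats alone it was -0.39 (adjusted p = 0.0367). The related Synpo2l had a line difference of -0.023. Nrap, an anchoring protein of myofibril assembly, had -0.23 between the lines (unadjusted p = 0.0237, adjusted p = 0.216). With the titles' lines it was -0.12, and without LCR running 5 it was -0.16.

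**Figure D3:**
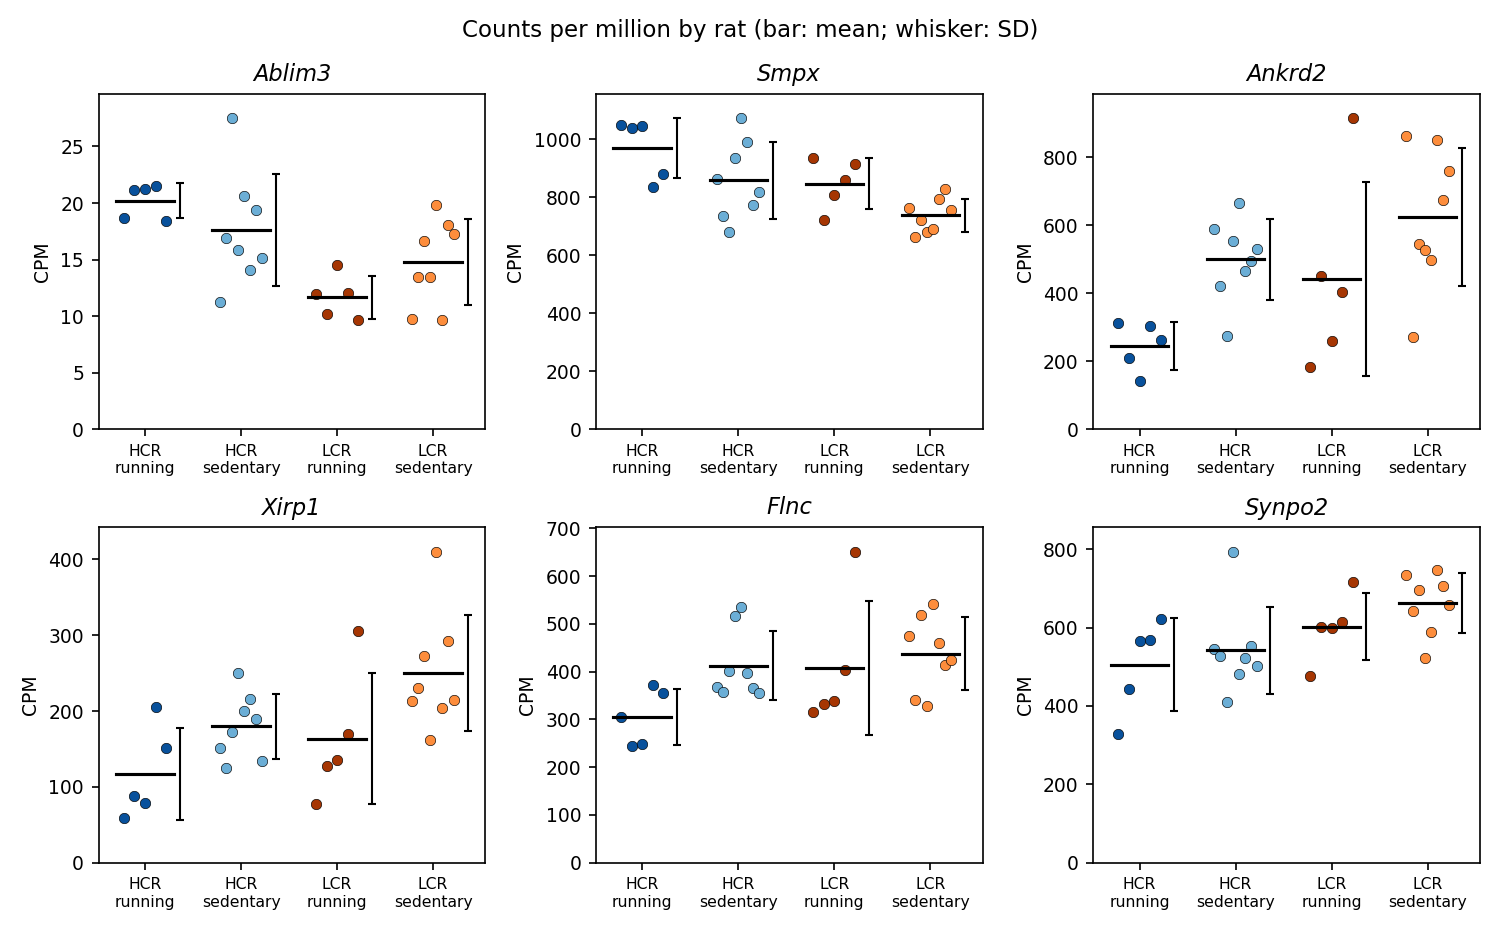
CPM of Ablim3, Smpx, Ankrd2, Xirp1, Flnc and Synpo2 in each of the 26 rats by group, from running HCR at the left to sedentary LCR at the right, with the mean as a bar and the SD as a whisker. Running HCR and running LCR rats do not overlap for Ablim3 (18.4 to 21.5 against 9.67 to 14.5 CPM) under the lines used here. With the titles' lines they overlap. LCR running 5 is the highest runner for Ankrd2 at 915 CPM, Xirp1 at 306 CPM, Flnc at 651 CPM and Synpo2 at 717 CPM.

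Of the 6 genes of stretch sensing and titin-linked signalling, Ankrd2 had the smallest p for running. Ankrd2 encodes an ankyrin repeat protein that binds titin near its elastic region, is known from slow muscle and is induced by stretch. It had 312, 209, 141, 303 and 263 CPM in running HCR rats, and 184, 449.6, 259.6, 403 and 915 CPM in running LCR rats. Sedentary rats ranged from 274 to 666 CPM in sedentary HCR rats (median 513) and from 272 to 863 CPM in sedentary LCR rats (median 609.7). In HCR all 5 runners lay below every sedentary rat but HCR sedentary 3, at 274 CPM. In LCR the runners reached below the lowest and above the highest sedentary rat, with LCR running 5 above every other library.

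The log2 fold change of Ankrd2 for running was -1.02 in HCR (2.03-fold lower, SE 0.33, unadjusted p = 0.00503, adjusted p = 0.192) and -0.51 in LCR (SE 0.32, adjusted p = 0.850). With the titles' lines the HCR value was -0.42 (adjusted p = 0.738). Averaged over the lines it was -0.77 (SE 0.23, adjusted p = 0.148), which did not pass. It passed without LCR running 5 (-0.98, adjusted p = 0.0310), under DESeq2 (-0.76, adjusted p = 0.0412) and under limma's voom with quality weights (-0.87, adjusted p = 0.0329). Without both conflicting libraries it was -0.997 (adjusted p = 0.0432). The adjusted p over all its alternatives ran from 0.0310 to 0.289. Between the running lines it was -0.84 (unadjusted p = 0.0277, adjusted p = 0.459), without LCR running 5 it was -0.40, and with the titles' lines it was 0.26.

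Its promoter (chr1:250796169-250796468, plus strand) held E-boxes, in capitals, and no match to the MEF2 site, while that of Xirp1 (chr8:128634962-128635261, minus strand) held both, and these promoters are shown because both genes had the lowest averages for running.
Ankrd2: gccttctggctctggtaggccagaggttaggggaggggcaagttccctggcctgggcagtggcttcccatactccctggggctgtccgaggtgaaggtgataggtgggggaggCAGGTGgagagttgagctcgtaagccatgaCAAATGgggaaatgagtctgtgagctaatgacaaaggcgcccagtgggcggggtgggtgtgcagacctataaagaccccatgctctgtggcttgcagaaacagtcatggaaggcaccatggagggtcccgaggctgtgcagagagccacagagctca
Xirp1: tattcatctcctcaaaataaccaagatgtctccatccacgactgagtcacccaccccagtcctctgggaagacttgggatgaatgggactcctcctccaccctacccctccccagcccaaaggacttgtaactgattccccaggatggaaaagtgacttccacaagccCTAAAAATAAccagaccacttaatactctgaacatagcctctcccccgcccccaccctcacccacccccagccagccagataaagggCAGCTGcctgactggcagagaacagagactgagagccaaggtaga
Both are RefSeq promoters of GRCr8, written 5' to 3'.

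Ankrd1, the cardiac ankyrin repeat protein of the same titin-binding family, varied widely between rats. It had 242, 79.2, 170.2, 696 and 604 CPM in running HCR rats, and 459.6, 380.0, 934, 274 and 106 CPM in running LCR rats. Without a wheel it ranged from 333 to 1123 CPM in sedentary HCR rats (median 525) and from 181 to 1176 CPM in sedentary LCR rats (median 388). The ranges of all 4 groups overlapped. Its log2 fold change for running was -0.52 (95% interval -1.31 to 0.27) and between the lines -0.014 (95% interval -0.79 to 0.77). Ankrd23, the third member of the family, had a log2 fold change for running of -0.21 (unadjusted p = 0.0414, adjusted p = 0.370).

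Csrp3 encodes muscle LIM protein, a Z-disc stretch sensor of slow muscle and heart. Its values were 1257, 710.1, 863, 1149.6 and 1067 CPM in running HCR rats, and 995, 955, 949.6, 1164 and 2052 CPM in running LCR rats. In sedentary rats they ranged from 741 to 1705 CPM in sedentary HCR rats (median 1121) and from 735 to 1644 CPM in sedentary LCR rats (median 1386). LCR running 5 was again the highest library, and the groups otherwise overlapped. Its log2 fold change was -0.24 between the lines (adjusted p = 0.493) and -0.15 for running (adjusted p = 0.743).

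Smpx, a small muscle protein encoded on the X chromosome that is induced by stretch, had positive log2 fold changes for HCR and for running. It measured 1049, 1037, 1045, 836 and 881 CPM in running HCR rats, and 933, 720.1, 807, 858 and 915 CPM in running LCR rats. Sedentary rats were from 681 to 1071 CPM in sedentary HCR rats (median 841) and from 663 to 827 CPM in sedentary LCR rats (median 738). Every running HCR rat was above every sedentary LCR rat, and all other pairs of groups overlapped. The share of all genes without overlap between those groups was not computed. The line difference was 0.21 (95% interval 0.068 to 0.35, unadjusted p = 0.00487, adjusted p = 0.0907), and running gave 0.19 (unadjusted p = 0.00980, adjusted p = 0.222), neither past the threshold. Without HCR sedentary 3 the line difference was 0.23 and passed (adjusted p = 0.0411). With the fast-fibre index as a covariate the line difference was 0.10 (adjusted p = 0.686) and that for running 0.13 (adjusted p = 0.585). Here too the index differed between the lines, and the part of fibre content in the Smpx values was not tested. Capn3, the titin-bound protease calpain 3, had 0.044 between the lines and 0.035 for running.

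The Smpx promoter (chrX:41107088-41107387, minus strand) held 1 MEF2 site and 3 E-boxes and that of Ablim3 (chr18:57646661-57646960, minus strand) held 1 E-box and no MEF2 site. Both are shown because these were the members with the smallest p between the lines, again with matching bases in capitals.
Smpx: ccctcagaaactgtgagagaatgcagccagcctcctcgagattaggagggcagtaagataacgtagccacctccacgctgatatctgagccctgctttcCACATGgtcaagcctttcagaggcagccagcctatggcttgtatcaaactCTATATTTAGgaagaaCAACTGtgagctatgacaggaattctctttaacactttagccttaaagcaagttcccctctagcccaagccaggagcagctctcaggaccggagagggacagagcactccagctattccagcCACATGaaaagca
Ablim3: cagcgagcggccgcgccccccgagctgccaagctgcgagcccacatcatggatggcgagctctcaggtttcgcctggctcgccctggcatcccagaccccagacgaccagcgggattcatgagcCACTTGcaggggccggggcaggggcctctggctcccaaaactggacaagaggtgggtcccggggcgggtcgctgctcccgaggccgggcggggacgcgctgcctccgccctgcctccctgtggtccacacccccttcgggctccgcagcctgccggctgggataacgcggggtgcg
The RefSeq entries end 50 bases after the annotated start.

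Ablim3, which with Ablim1 belongs to a family of LIM proteins that bind actin, was the member that differed between the lines. It had 18.7, 21.2, 21.3, 21.5 and 18.4 CPM in running HCR rats, and 11.9, 10.2, 14.5, 12.0 and 9.67 CPM in running LCR rats. Sedentary rats ranged from 11.2 to 27.5 CPM in sedentary HCR rats (median 16.4) and from 9.69 to 19.9 CPM in sedentary LCR rats (median 15.1). Every running HCR rat was above every running LCR rat, and the sedentary lines overlapped, with 6 of 8 HCR rats above the LCR mean. With the titles' lines the running lines overlapped, as HCR running 5 had 18.4 and LCR running 5 had 9.67 CPM. The share of all genes without overlap between the running lines was not computed. Means were 20.2 ± 1.53 CPM in running HCR and 11.7 ± 1.88 CPM in running LCR rats (SD, n = 5 each), and 17.6 ± 4.96 CPM in sedentary HCR and 14.8 ± 3.81 CPM in sedentary LCR rats (SD, n = 8 each). Its counts were low, at 28.4 a library on average.

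Averaged over activity its log2 fold change was 0.52 (95% interval 0.24 to 0.80, SE 0.14, adjusted p = 0.0247). In running rats it was 0.78 (unadjusted p = 0.00119, adjusted p = 0.111), in sedentary rats 0.25 (adjusted p = 0.481), and the difference between the responses was 0.53 (adjusted p = 0.852). With the titles' lines it was 0.52 in running rats, and the difference between the responses was 0.27. The average no longer passed with the titles' lines for the conflicting libraries (0.39, adjusted p = 0.240), without those libraries (0.51, adjusted p = 0.0559) or without LCR running 2 (0.49, adjusted p = 0.0553). With the fast-fibre index as a covariate it was 0.75 (adjusted p = 0.0118). Adipocyte markers, of which 5 of 7 were tested, summed to 204 to 329 CPM in running HCR and 149 to 248 CPM in running LCR rats, and to 237 to 473 CPM in sedentary HCR and 164 to 361 CPM in sedentary LCR rats. Macrophage markers, of which 8 of 10 were tested, summed to 274 to 428 CPM in running HCR and 244 to 389 CPM in running LCR rats, and to 277 to 441 CPM in sedentary HCR and 202 to 336 CPM in sedentary LCR rats. Averaged over activity 8 of 8 had a log2 fold change above 0 in HCR against LCR, with a median of 0.26, and 1, Folr2, was called higher. The part of adipocyte and macrophage markers in the Ablim3 values was not tested.

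Ablim1 had 495, 475, 411, 518 and 435 CPM in running HCR rats, and 458, 475, 343, 332 and 552 CPM in running LCR rats. In sedentary rats its values lay from 324 to 575 CPM in sedentary HCR rats (median 387) and from 408 to 632 CPM in sedentary LCR rats (median 487). Sedentary HCR rats had 7 of 8 values below the sedentary LCR mean. The sedentary line difference was -0.32 (SE 0.12, unadjusted p = 0.0121, adjusted p = 0.158), and the difference between the lines' responses to running was 0.43 (unadjusted p = 0.0328, adjusted p = 0.836). Neither passed. Des, which encodes desmin, the intermediate filament that joins neighbouring Z-discs, had 2392, 2122, 2605, 2519 and 2284 CPM in running HCR rats, and 2489, 2404, 2195, 2297 and 2759.6 CPM in running LCR rats. Its sedentary range was from 1738 to 2609 CPM in sedentary HCR rats (median 2154) and from 1848 to 2573 CPM in sedentary LCR rats (median 2362). The groups overlapped, with log2 fold changes of -0.051 between the lines (95% interval -0.20 to 0.094) and 0.10 for running (95% interval -0.044 to 0.25).

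The 34 genes differed widely in how much they varied between rats of a group. The within-group SD of log2 CPM was 1.27 for Mybpc2, 0.97 for Ankrd1, 0.77 for Actn3, 0.67 for Mybph, 0.57 for Ankrd2 and 0.53 for Xirp1. For each of these 6 genes, 98.1% to 99.7% of the tested genes within 1 log2 unit of its level had a smaller SD. At the other end stood Smpx at 0.17, Des at 0.17 and Myom1 at 0.19. The median SD was 0.26 over the 34 genes. It was 0.23 over the 6319 tested genes at or above the lowest member's level, a set not matched by level. Among tested genes within 1 log2 unit of a member, the share with a smaller SD was 18.6% for Des and 29.3% for Myom1. It was 41.1% for Ablim3 and 43.0% for Smpx. For the other members with such genes it ran from 50.7% for Ldb3 to 100% for Tcap. The 6 genes of stretch sensing and titin-linked signalling spanned most of this range, from Smpx at 0.17, Capn3 at 0.20 and Ankrd23 at 0.27 to Ankrd2 and Ankrd1.

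**Figure D4:**
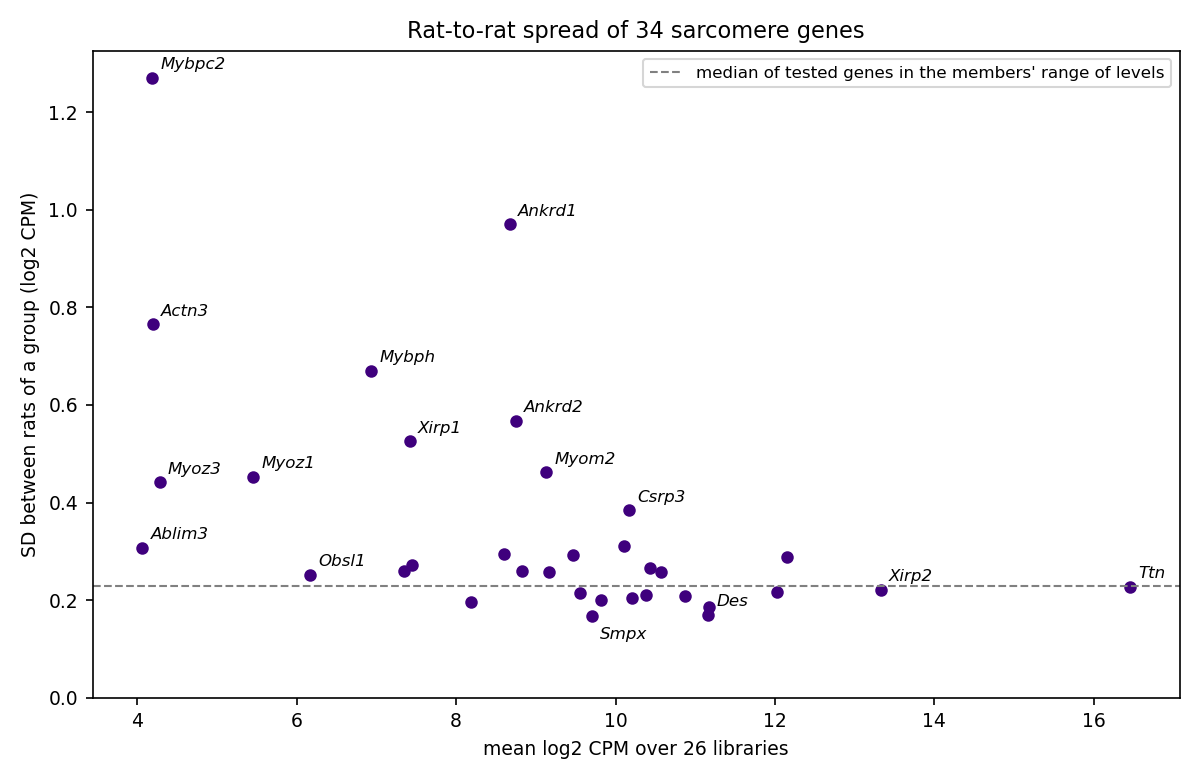
SD of log2 CPM between rats of a group against the mean log2 CPM over 26 libraries, with 1 point for each of the 34 genes. Mybpc2 (1.27) and Ankrd1 (0.97) lie highest. The dashed line marks the median of all tested genes at or above the lowest member's level (0.23).

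**Figure D5:**
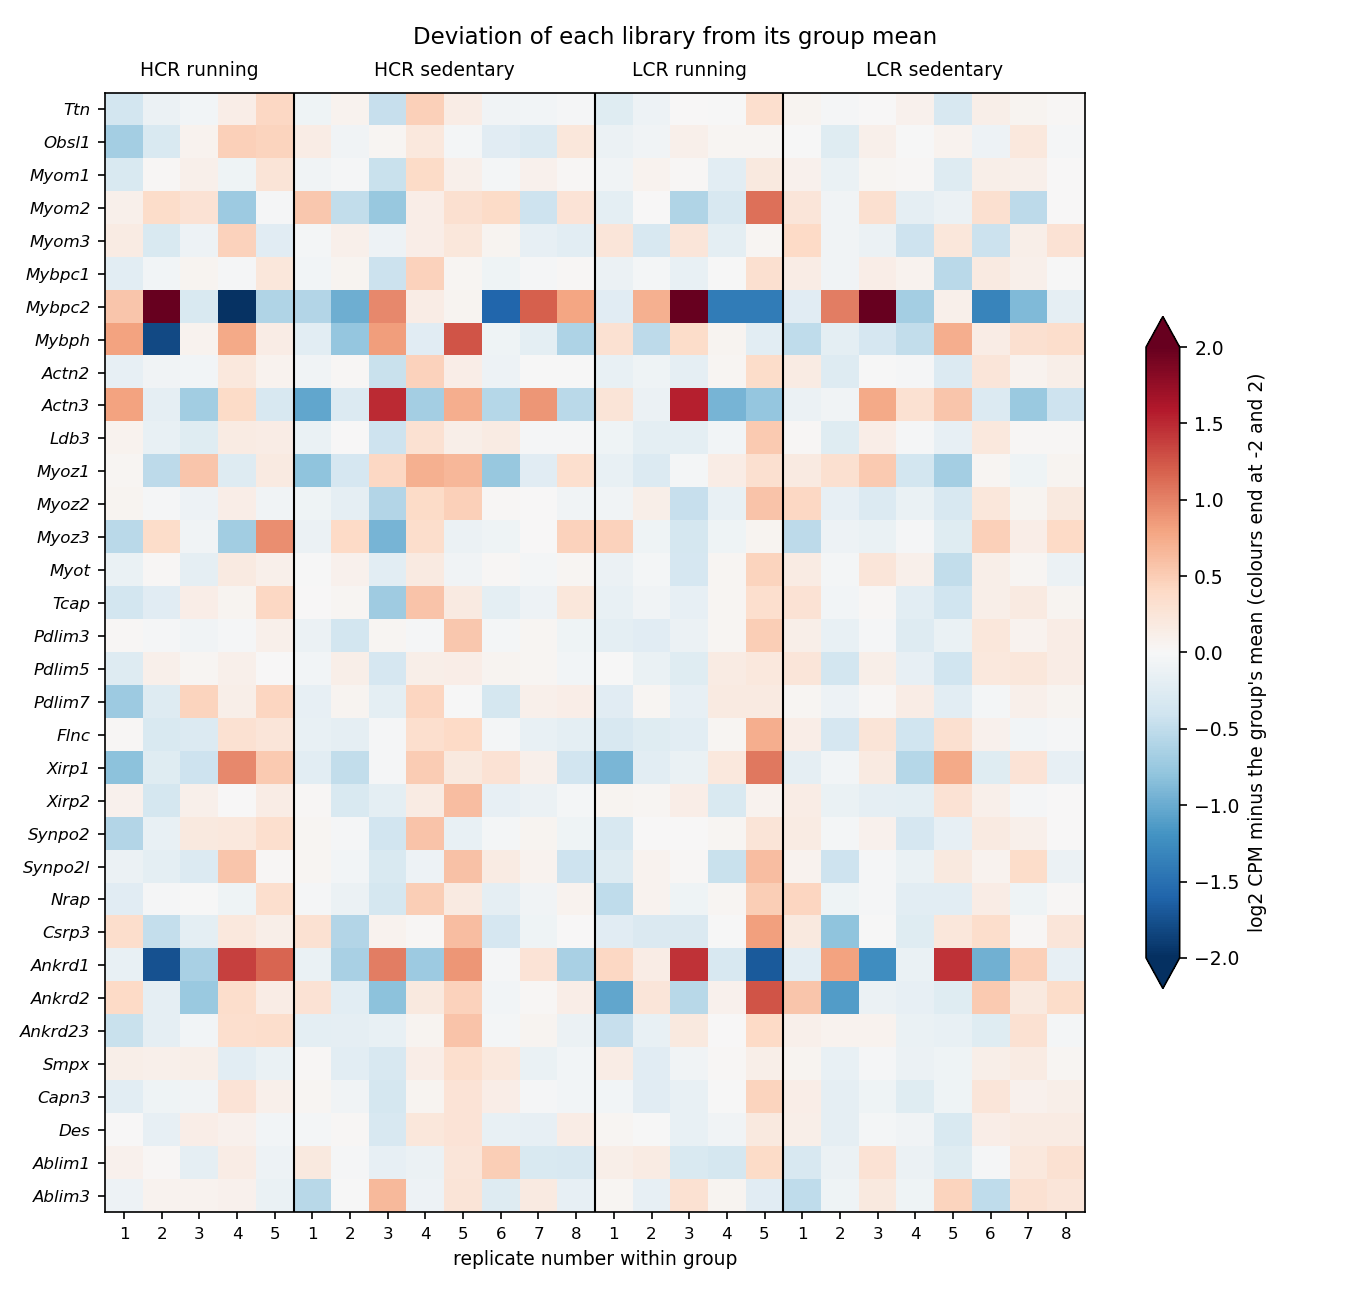
Log2 CPM of each of the 34 genes in each library minus the mean of its group, with groups in blocks from running HCR at the left to sedentary LCR at the right. LCR running 5 is above its group mean for 29 of 34 genes and HCR sedentary 5 for 29 of 34, whereas LCR sedentary 2 is above it for 4 of 34.

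As that plot of deviations shows, some libraries lay on 1 side of their group mean for most of the genes. HCR sedentary 5 had a median deviation of 0.25 over the 34 genes, HCR sedentary 4 of 0.19 and HCR sedentary 3 of -0.26. LCR running 5 was below its group mean for Ankrd1 and Mybpc2.

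A list of 38 other sarcomere genes, of which 37 were tested, held partners of titin, the Z-disc and the costamere and chaperones of assembly. Averaged over activity 0 were higher and 2 were lower in HCR, where 3.75% of all genes tested were called in either direction. Cmya5, or myospryn, a desmin-binding scaffold protein, fell (log2 fold change -0.33, SE 0.086, adjusted p = 0.0209), and so did Trim54, a ubiquitin ligase of the MuRF family (log2 fold change -0.24, SE 0.070, adjusted p = 0.0474). In sedentary rats 0 rose and 2 fell in HCR, Trim54 (log2 fold change -0.33, SE 0.087, adjusted p = 0.0282) and Trim55 (log2 fold change -0.31, SE 0.087, adjusted p = 0.0429), another MuRF ligase. Of all genes tested, 2.72% were called between the sedentary lines. In the other 5 contrasts 0 passed. Calls in this list were not examined under the other settings, such as the titles' lines. For running the smallest p-values belonged to Cryab, the small heat shock protein of the Z-disc (log2 fold change -0.27, SE 0.10, adjusted p = 0.207), and Speg, a kinase of the obscurin family (log2 fold change 0.23, SE 0.083, adjusted p = 0.221), and in running HCR against running LCR rats to Cmya5 (log2 fold change -0.38, SE 0.13, adjusted p = 0.271) and Palld, or palladin (log2 fold change -0.26, SE 0.10, adjusted p = 0.366). In HCR runners they belonged to Speg (log2 fold change 0.32, SE 0.12, adjusted p = 0.229) and the MuRF ligase Trim63 (log2 fold change 0.48, SE 0.21, adjusted p = 0.343). In LCR runners they belonged to Cryab (log2 fold change -0.25, SE 0.14, adjusted p = 0.8295) and Trim55 (log2 fold change -0.18, SE 0.10, adjusted p = 0.8295). For the difference between the lines' responses they belonged to Klhl40, a chaperone of thin-filament proteins (log2 fold change 0.38, SE 0.16, adjusted p = 0.835), and Trim55 (log2 fold change 0.31, SE 0.14, adjusted p = 0.843).

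Cell type markers were read beside these results. Of 13 fast-fibre markers, 4 were called lower in HCR and 0 higher averaged over activity, where 3.75% of all genes were called. Between the sedentary lines 0 of 13 were called and 10 lay below 0, where 2.72% of all genes were called. Between the running lines 3 were called, all lower, and 11 lay below 0, where 0.626% of all genes were called. Their sums were 4914 to 8655 CPM in running HCR and 9150 to 16497 CPM in running LCR rats. In sedentary rats the sums were 5107 to 11829.5 CPM in HCR and 10134 to 16142 CPM in LCR. Of the 10 slow-fibre markers, 1 was called higher in runners averaged over the lines and 0 were called between the lines. Tendon and myotendinous junction markers, of which 5 of 8 were tested, summed to 46.0 to 149.9 CPM in running HCR, 81.5 to 161.5 CPM in running LCR, 102 to 362 CPM in sedentary HCR and 94.4 to 271 CPM in sedentary LCR rats. Between the sedentary lines 5 of 5 had a log2 fold change above 0, with a median of 0.69, and 1, Scx, was called higher in HCR. Smooth muscle and pericyte markers, of which 9 of 10 were tested, summed to 437 to 489.5 CPM in running HCR, 362 to 466.1 CPM in running LCR, 346 to 501 CPM in sedentary HCR and 395 to 586 CPM in sedentary LCR rats. Averaged over activity, 1 of 8 endothelial markers was called lower in HCR, while 5 of the 8 lay above 0. Of 5 tested Schwann markers 1 was called lower in HCR, while 4 lay above 0. No listed marker in the table was at 0 in all libraries of a group, and the part of cells other than muscle fibres in the results above was not tested.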

How the data were processed

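Soleus RNA of 26 rats was made into 3' libraries with an oligo(dT) primer, per the labels' protocols. The authors deposited raw counts of reads for each gene, which are whole numbers and differ in total between libraries. Reads were handled with STAR, featureCounts, cutadapt, UMI-tools, FastQC and MultiQC on mRatBN7.2 (rn7), per the submitters' processing notes, which give no versions. Collapsing of molecular identifiers is not described, so counting precision may be lower than the totals imply. Totals ran from 1.10 to 2.52 megacounts, and 0 columns belonged to no sample.

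Counts were tested with edgeR 4.0.16 (limma 3.58.1, R 4.3.3) using glmQLFit (robust) and glmQLFTest after TMM scaling and the filterByExpr filter (minimum count 10). All 26 libraries of 4 groups entered 1 fit with 7 contrasts, and p-values were adjusted by Benjamini-Hochberg over 10064 genes. Each SE was derived from the estimate and its F statistic, and 95% intervals use the t distribution. CPM uses TMM-adjusted library sizes, and log2 CPM a prior count of 2. The common biological coefficient of variation was 0.156. The fast-fibre index entered as 1 numeric term beside the groups. P-values set the differences between groups against the spread between these rats, with cage mates counted as separate animals. The fits were also run on counts simulated with independent genes and rats. That simulation leaves out cage mates and shifts of many genes in 1 library, and no result above rests on it.

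Groups came from the descriptions and genotypes. Of 76 pairs of libraries within groups 0 were identical, and none agreed within sampling noise. The 34 genes, the list of 38 other sarcomere genes and the cell type markers were chosen with earlier results of these data known. Values of every group are given for a gene that passed in any test, for the 3 genes of smallest p in each contrast, and for 14 genes always named (Ttn, Actn2, Actn3, Myoz1, Myoz2, Myom1, Myom2, Mybpc1, Mybpc2, Ankrd1, Ankrd2, Csrp3, Flnc and Des). Of the other sarcomere genes, those that passed and the 2 of smallest p in each contrast are named. Genes named outside this rule were chosen after their values were seen. Alternatives were other scalings and filters, DESeq2 1.42.0, limma's voom with quality weights, the titles' lines, added covariates and leaving out each library. Promoters are RefSeq entries of GRCr8, matched by symbol for 26 of 34 genes. The sequence of 1 matching site is not reported here.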

Additional observations from a re-analysis of the deposited data

Results flagged for a closer look

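In 20 of 136 combinations of a gene and a group, 1 rat lay far from the others of its group by Dixon's test. For normally distributed values about 1 in 20 combinations, or 6.8, would be picked out. The test was run on CPM without logs, and genes of 1 library are not independent. The share over all genes was not computed, so no excess is claimed. These involved 14 genes and 10 libraries.

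LCR running 5 was the high rat for 6 genes, with 1165 CPM of Myom2, 5395 CPM of Mybpc1, 2599.5 CPM of Ldb3, 651 CPM of Flnc, 2052 CPM of Csrp3 and 385 CPM of Capn3. LCR running 3 was high for Mybpc2 at 70.7 CPM and Actn3 at 44.0 CPM, and LCR running 4 was low for Xirp2 at 8709 CPM. HCR running 2 was high for Mybpc2 at 54.8 CPM and HCR running 1 low for Pdlim5 at 978 CPM.

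HCR sedentary 5 was the high rat for Pdlim3 at 1058 CPM, Xirp2 at 15099 CPM and Ankrd23 at 2269.5 CPM. HCR sedentary 4 was high for Mybpc1 at 5519.8 CPM and Synpo2 at 793 CPM, and HCR sedentary 3 was low for Pdlim5 at 904 CPM. LCR sedentary 5 was low for Ttn at 73863 CPM and Mybpc1 at 2927 CPM, and LCR sedentary 3 was high for Mybpc2 at 128 CPM. For 0 of the genes did the running response differ between the lines past the adjusted threshold (edgeR quasi-likelihood test).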

How the results depend on the processing

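Of 1309 repeats of named results under other settings, 1294 kept direction and call, 10 passed where the reported fit did not, 3 no longer passed and 2 reversed. The reversals came with the titles' lines for the conflicting libraries, between the running lines, for Ankrd2 (log2 fold change 0.26) and Flnc (0.054). For the lines averaged over activity, 0 of 34 genes passed with the titles' lines and 0 without the conflicting libraries, and leaving out each library gave 0 to 2. For running averaged over the lines, 1 passed under DESeq2, 2 under limma's voom with quality weights and 2 without the conflicting libraries, and leaving out each library gave 0 to 2. Between the sedentary lines leaving out each library gave 0 to 1. The median response difference was 0.17 with the titles' lines, against 0.0061. With Myh2 alone as the index 1 passed. The causes were not tested. Over all genes, calls ran from 137 to 418 for the lines averaged (377 reported), 6 to 75 for running averaged (38 reported), 181 to 367 between the sedentary lines (274 reported), 0 to 92 between the running lines (63 reported), 3 to 79 for running in HCR (10 reported), 0 to 2 for running in LCR (0 reported), 0 for the difference of responses and 0 to 9 for the index (3 reported). Replicate numbers did not pair samples: same-numbered libraries correlated over 0.1 in 3 of 33 pairs, from -0.22 to 0.26. With the replicate number as a block the same numbers of the 34 genes passed, 1 for the lines averaged and 0 elsewhere. Depth limits Ablim3, Mybpc2, Actn3 and Myoz3 most, at 28.4 to 45.3 counts a library on average.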

Other observations

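Ratios of 4 genes known from fast fibres to a relative were computed within each library from log2 CPM with its prior count of 2. That prior draws the ratios of genes with few counts, such as Mybpc2, towards 0. Actn2 is present in all fibres and Myom1 is the main myomesin, so not all 4 are fast-to-slow ratios. Myom2 had a negative slope on the fast-fibre index, at -0.67, which did not pass the adjusted threshold. As ratios of read counts not divided by transcript length, the ratios compare rats, not absolute amounts of the genes' products. The log2 ratio of Actn3 to Actn2 was -6.38 ± 0.62 in running HCR, -6.52 ± 1.16 in running LCR (SD, n = 5 each), -6.12 ± 1.05 in sedentary HCR and -5.95 ± 0.62 in sedentary LCR rats (SD, n = 8 each). That of Myoz1 to Myoz2 was -4.13 ± 0.47 in running HCR, -3.76 ± 0.35 in running LCR, -4.23 ± 0.60 in sedentary HCR and -3.90 ± 0.41 in sedentary LCR rats. Mybpc2 to Mybpc1 gave -8.58 ± 1.65 in running HCR, -8.21 ± 1.69 in running LCR, -7.80 ± 1.05 in sedentary HCR and -7.21 ± 1.17 in sedentary LCR rats. Myom2 to Myom1 gave -2.09 ± 0.45 in running HCR, -2.08 ± 0.56 in running LCR, -2.14 ± 0.43 in sedentary HCR and -1.89 ± 0.29 in sedentary LCR rats. All 4 ratios overlapped between all groups.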
